A study of Mus musculus with 15 samples.

Results

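Fn1, Tnc, Postn, Thbs1, Thbs2, Sparc and Spp1 encode secreted glycoproteins that cells use to attach to, or let go of, the matrix around them. These 7 genes were chosen by name and were found in all libraries, as 7 of the 18078 genes measured. The RNA came from primary lung fibroblasts, cultured connective-tissue cells, of wild-type BALB/cJ mice, and was sequenced as 15 libraries at 20 h. The libraries form 5 groups of 3: the triple combination of IL-33, IL-13 and IL-17A, IL-33 with IL-13, IL-33 with IL-17A, IL-33 alone, and untreated cultures. IL-33 is an alarmin that damaged barrier cells release, IL-13 signals through STAT6, and IL-17A comes from T cells and innate lymphoid cells. All 15 cultures share the strain, the wild-type genotype and the time, and 12 of them share IL-33, so IL-13 and IL-17A were tested only in its presence. Replicates are numbered here by order of deposit, which only names a library. The labels name no animals, culture dates or replicate numbers, so the spread behind each p-value is that between libraries and may be technical.

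Matricellular proteins are secreted into the matrix but signal to cells more than they bear load. Fibronectin (Fn1) is the exception in the group, since it is assembled into fibrils that carry other matrix proteins and binds the integrin made of Itga5 and Itgb1. Tenascin-C (Tnc) and periostin (Postn) appear at sites of injury and remodelling, and periostin is known in human airway epithelium as an IL-13 response gene. The thrombospondins Thbs1 and Thbs2 are related proteins that bind CD36 and CD47 and restrain vessel growth, and thrombospondin-1 can also release TGF-beta from its latent form. SPARC binds collagen and loosens cell adhesion, and osteopontin (Spp1) binds integrins and CD44 and is made by macrophages as well as by mesenchymal cells.

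The promoters of Postn, Thbs2 and Tnc are shown because these were the members whose RNA moved most, each in a different pattern over the groups. Promoters of 5 of the 7 members were matched in a RefSeq table of build GRCm38.p6. Each sequence holds the 250 bases before an annotated start, on the strand of the gene, 5′ to 3′. For genes with several annotated starts the window nearest to the start of the gene in the files is shown. Capitals mark TATAAA on the gene's strand, or TTTATA where the match lies on the opposite strand.
Postn, chr3:54360857-54361106, plus strand: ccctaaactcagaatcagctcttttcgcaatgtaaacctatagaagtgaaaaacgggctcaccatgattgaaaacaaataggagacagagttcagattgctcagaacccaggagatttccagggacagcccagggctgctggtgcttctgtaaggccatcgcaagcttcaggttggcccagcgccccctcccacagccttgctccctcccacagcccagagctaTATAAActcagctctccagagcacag
Thbs2, chr17:14694263-14694512, minus strand: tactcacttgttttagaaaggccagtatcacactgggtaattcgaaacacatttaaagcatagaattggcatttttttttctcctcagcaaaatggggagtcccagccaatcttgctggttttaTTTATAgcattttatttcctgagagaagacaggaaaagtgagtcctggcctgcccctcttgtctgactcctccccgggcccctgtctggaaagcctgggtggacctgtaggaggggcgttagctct
Tnc, chr4:64047016-64047265, minus strand: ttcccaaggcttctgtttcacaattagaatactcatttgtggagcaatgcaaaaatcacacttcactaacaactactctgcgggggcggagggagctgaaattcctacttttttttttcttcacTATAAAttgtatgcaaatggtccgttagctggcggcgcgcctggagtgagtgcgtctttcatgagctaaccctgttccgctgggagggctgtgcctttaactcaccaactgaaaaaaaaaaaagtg
In the Postn promoter the TATAAA began 26 bases before the start, where a TATA box usually lies. In the Thbs2 promoter the match began 126 bases before the start, as did the one in the Tnc promoter. TATAAA on either strand was in 12.4% of the 32851 promoter windows of the table. The form bound by STAT6, TTC and GAA with any 4 bases between them, was in none of the promoter windows of the 5 matched members, against 5.85% of all windows. The same was true of TTC and GAA with any 3 bases between them, bound by other STAT factors (7.02% of all windows), of GGG and TTCC with any 3 bases between them, bound by NF-kB (4.65%), and of TGANTCA, bound by AP-1 (6.75%). All were searched on both strands, and the STAT and AP-1 forms are their own reverse complements. The absence of a match says only that the letters are not in these windows.

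The deposited values are TPM, reads per length scaled to the same total in each library. They were matched by reads divided by the whole gene span, introns included, so the reads behind a value could be estimated, and the libraries held 10554594 to 15123270 reads over genes. The 7 members rested on 5045 to 122844 such reads each per library. In 6 libraries the 13 mitochondrially encoded protein genes held 3.50% to 3.87% of TPM, and in the other 9 they held 4.77% to 6.13%. The 6 comprised replicate 1 of the triple combination, the whole group with IL-13 added to IL-33, and replicates 2 and 3 of the group with IL-17A added to IL-33. IL-33 with IL-13 therefore has no library in the set of IL-33 and untreated cultures, and that split and the addition of IL-13 to IL-33 cannot be told apart there. Where both sets can be compared, the set with the higher share holds 1 library of IL-33 with IL-17A and the set with the lower share holds 1 of the triple combination. Values within a set are therefore given without a test, beside a fit of all libraries with a term for the set. Fibroblast markers were abundant (Col1a1 averaged 4658 TPM), and so were macrophage markers, of which 17 of 18 averaged 10 TPM or more and Lyz2, a lysozyme gene of myeloid cells, averaged 9363 TPM. Summed epithelial and endothelial markers stayed at or under 10.5 and 7.93 TPM in each library.

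All 7 genes were strongly expressed in every group, and their order by level depends on the length used. Averaged over the 15 libraries as deposited, per gene span, the levels were 7499 TPM for Spp1, 5619 for Thbs1, 1449 for Fn1, 1142 for Sparc, 418 for Tnc, 364 for Thbs2 and 258 for Postn. Recomputed per exonic length, the levels were 8954 TPM for Spp1, 4679.8 for Thbs1, 2866 for Sparc, 2783 for Fn1, 1561 for Tnc, 495 for Thbs2 and 295 for Postn. Only Sparc and Fn1 changed places. Tnc changed most, since its exons cover 7772 bases of a gene that spans 87231. The ratio of the highest to the lowest library was 2.96 for Thbs2, 2.71 for Postn and 1.88 for Tnc, and 1.39 to 1.60 for the other 4 genes. The length of a gene cancels in its own change between groups, but the scaling to a fixed total shifts with the lengths used. Per gene span Fn1 averaged 1309 TPM in the triple combination and 1777 TPM in untreated cultures. Per exonic length it averaged 2540 and 3349 TPM, a slightly smaller fall. All values below are TPM per gene span.

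**Figure D1:**
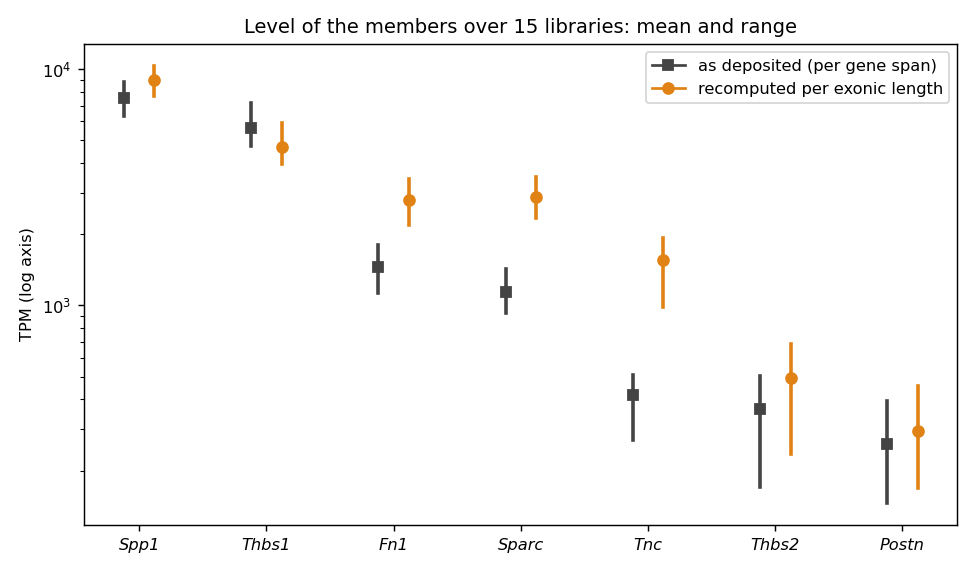
Mean TPM of each gene over the 15 libraries on a log axis, as deposited per gene span (squares) and recomputed per exonic length (circles). Bars run from the lowest to the highest library, and Fn1, Sparc and Tnc moved up most when introns were left out.

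Against untreated cultures the genes divided into those that rose, those that fell and those that turned with the second cytokine. With the triple combination, 2 of the 7 genes rose (Tnc and Postn) and 5 fell, where limma called 42.7% of the 13887 tested genes, 12.6% risen and 30.1% fallen. With IL-33 and IL-13 the same split of 2 risen and 5 fallen genes was found, where 49.6% of genes were called, 14.5% risen and 35.1% fallen. With IL-33 and IL-17A, Tnc rose, 5 genes fell and Thbs2 did not pass the test, where 37.7% of genes were called, 10.7% risen and 27% fallen. With IL-33 alone, Tnc rose, 4 genes fell, and Postn and Thbs2 did not pass, where 14.2% of genes were called, 5.92% risen and 8.28% fallen. The median log2 change of the 7 genes was −0.44, −0.39, −0.33 and −0.15 in that order of treatments, and that of all tested genes was −0.10, −0.12, −0.09 and −0.05. The 4 comparisons share the untreated libraries.

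Part of that general fall depends on the scaling of TPM. When libraries were scaled by their median ratio, the medians of all genes came to 0.01, 0.01, 0.01 and 0.00. The shares of higher genes among all called genes then came to 52.5%, 52.9%, 53.2% and 56.6%, where the deposited scale gave 29.6%, 29.3%, 28.4% and 41.7%. Measured against the median of all genes, the changes of the members are 0.10, 0.12, 0.09 and 0.05 log2 higher than printed here. Median-ratio scaling moved them further. Under it Fn1 stood at −0.31, −0.17, −0.42 and −0.17, where the deposited scale gave −0.44, −0.32, −0.55 and −0.23. No member that passed the test changed direction with this scaling, and 2 calls were lost, that of Spp1 with IL-33 alone and that of Sparc when IL-17A was added to IL-33.

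**Figure D2:**
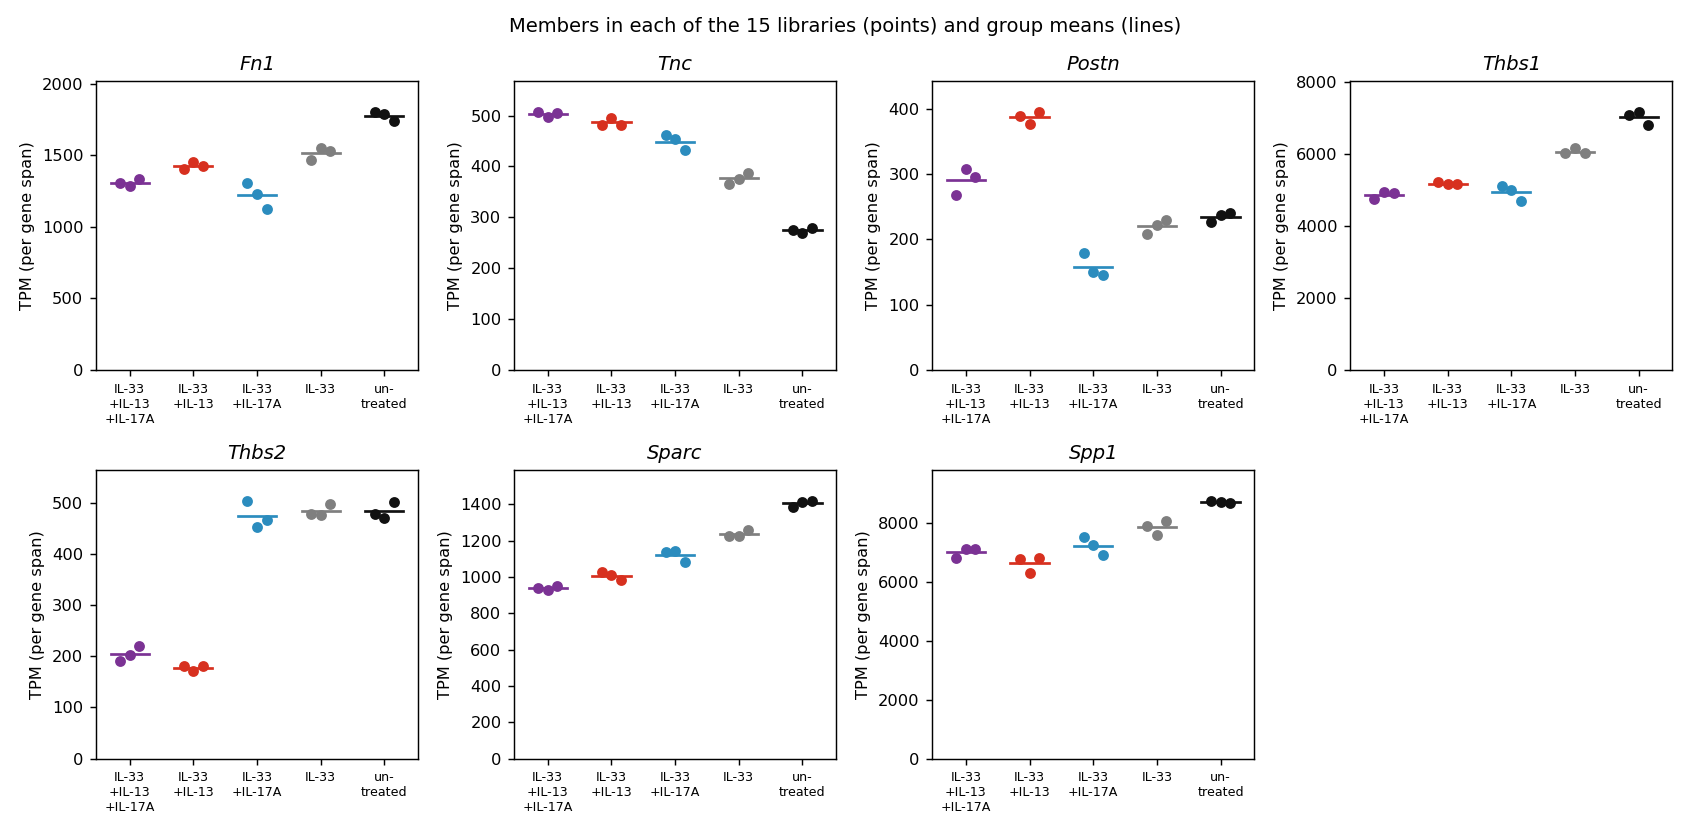
TPM per gene span of the 7 genes in each of the 15 libraries (points) with group means (lines), on linear axes from 0. Tnc is higher in all treated libraries than in untreated ones, Thbs2 separates the cultures with IL-13 from those without, and Postn is highest with IL-33 and IL-13.

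**Figure D3:**
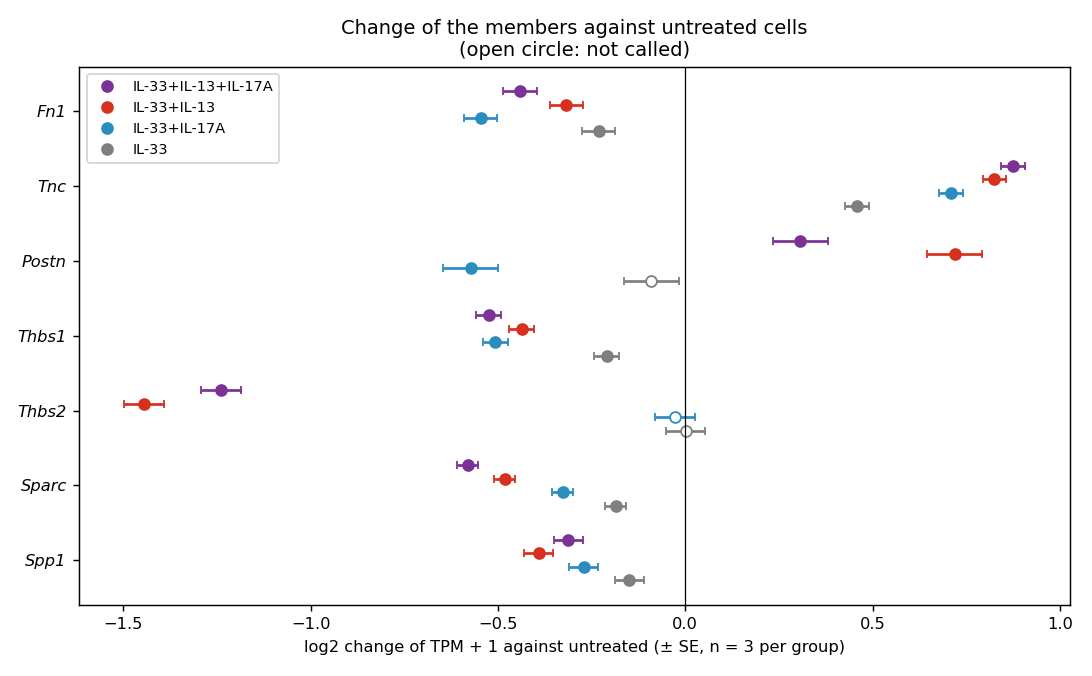
Log2 change of TPM + 1 against untreated cultures for each gene and treatment, with SE (n = 3 libraries per group). Open circles did not pass an adjusted p of 0.05. Tnc lies right of 0 in all treatments, Fn1, Thbs1, Sparc and Spp1 lie left of 0 in all treatments, and Postn lies on both sides.

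Thbs2 (ENSMUSG00000023885, chromosome 17, 14665500 to 14694235, minus strand, mm10) had the largest change of the 7, and it went with IL-13. Its levels were 191, 202 and 220 TPM in the triple combination, 180.3, 170.2 and 180.4 TPM with IL-33 and IL-13, 504, 453 and 466 TPM with IL-33 and IL-17A, 477, 476 and 497 TPM with IL-33, and 478, 470.2 and 501 TPM in untreated cultures. The 6 libraries with IL-13 lay far below the 9 without it, and the 3 groups without IL-13 overlapped each other. Adding IL-13 to IL-33 brought Thbs2 to 0.368 times the level with IL-33 alone (log2 change −1.44 ± 0.05 SE, adjusted p = 2.9e-09). Only 0.915% of the tested genes changed by more in that comparison. Adding IL-13 where IL-17A was already present gave 0.432 times the level (−1.21 ± 0.05, adjusted p = 2.3e-08).

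Within the libraries of like mitochondrial share, where 1 of the 2 arms is a single library, Thbs2 in the triple combination against IL-33 with IL-17A stood at −1.25 in the set with the higher share and −1.26 in the set with the lower one. With a term for the set this change was −1.26 (adjusted p = 8.8e-09). For IL-13 added to IL-33 alone no value within a set exists, and with the term the change was −1.31 (adjusted p = 1.5e-07). IL-33 alone changed Thbs2 by 0.00 ± 0.05 against untreated cultures (adjusted p = 1), and IL-17A added to IL-33 changed it by −0.03 ± 0.05 (adjusted p = 0.77). Neither passed the test, and the second changed sign under median-ratio scaling. Between the cultures with IL-13, Thbs2 averaged 204 ± 14.3 TPM in the triple combination and 177 ± 5.86 TPM with IL-33 and IL-13 (SD, n = 3 each), a rise of 0.20 ± 0.05 (adjusted p = 0.038). That call was lost in 5 of 6 fits that left out a library (adjusted p of the lost calls 0.073 to 0.16) and with a term for the mitochondrial share (0.11, adjusted p = 0.26).

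Postn (ENSMUSG00000027750, chromosome 3, 54361109 to 54391037, plus strand) went up with IL-13 and down with IL-17A. Its levels were 269, 308 and 295 TPM in the triple combination, 389, 377 and 395 TPM with IL-33 and IL-13, 179, 149 and 146 TPM with IL-33 and IL-17A, 209, 223 and 230.1 TPM with IL-33, and 226, 237 and 240.4 TPM in untreated cultures. The group with IL-33 and IL-13 lay above all others, the triple combination came next, and IL-33 with IL-17A lay below all others. The IL-33 and untreated libraries overlapped. IL-33 alone gave −0.09 ± 0.07 against untreated cultures, which did not pass the test (adjusted p = 0.48).

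Adding IL-13 raised Postn 1.75 times over IL-33 alone (log2 change 0.81 ± 0.07, adjusted p = 8.3e-06) and 1.84 times where IL-17A was present (0.88 ± 0.07, adjusted p = 6.4e-06). With a term for the mitochondrial share these rises were 1.03 (adjusted p = 1.3e-06) and 0.81 (adjusted p = 4.7e-07). The second stood at 0.75 and 0.86 within the libraries of higher and lower share, with a single library in 1 arm of each. Adding IL-17A lowered Postn to 0.716 times its level with IL-33 alone (−0.48 ± 0.07, adjusted p = 0.0011) and to 0.751 times its level with IL-33 and IL-13 (−0.41 ± 0.07, adjusted p = 0.0047). With the term these falls were −0.33 (adjusted p = 0.002) and −0.56 (adjusted p = 8e-05). The single library of IL-33 with IL-17A in the higher share stood at −0.30 against IL-33, and the single library of the triple combination in the lower share at −0.52 against IL-33 with IL-13. The triple combination still stood 1.24 times above untreated cultures (0.31 ± 0.07, adjusted p = 0.0048).

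**Figure D4:**
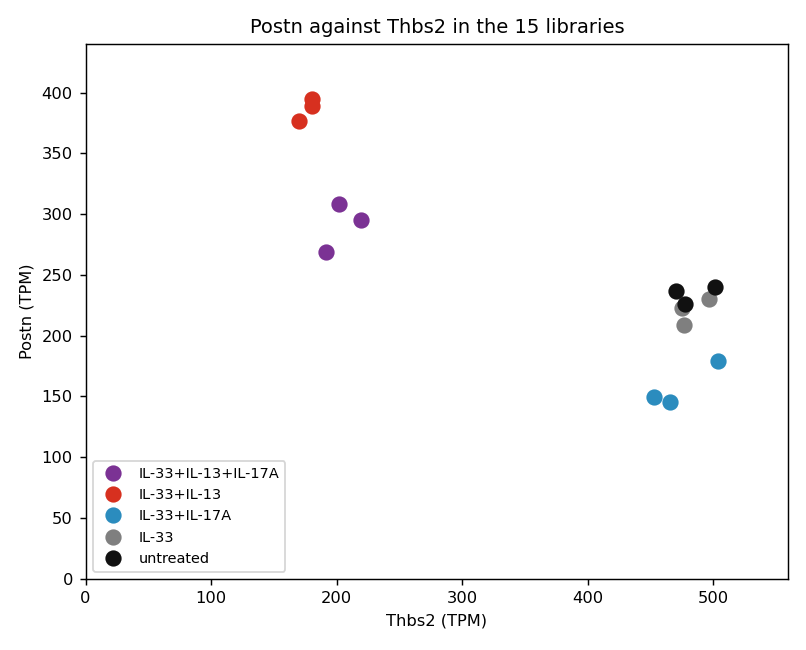
Postn against Thbs2 (TPM per gene span) in the 15 libraries, coloured by group. The libraries with IL-13 sit at the left with low Thbs2, those without IL-13 sit at the right, and within each side the libraries with IL-17A lie low on the Postn axis.

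The ratio of Postn to Thbs2 within each library puts the groups in a clear order. It was 1.344 to 1.527 in the triple combination, 2.158 to 2.212 with IL-33 and IL-13, 0.3128 to 0.3553 with IL-33 and IL-17A, 0.4371 to 0.4681 with IL-33, and 0.4739 to 0.5043 in untreated cultures, on the scale per gene span. No 2 groups overlapped. Over the 15 libraries, which share their groups, the correlation of Postn with Thbs2 was −0.83 (Pearson r of log2 values, given as a description).

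Thbs1 (ENSMUSG00000040152, chromosome 2, 118111876 to 118127133, plus strand), the relative of Thbs2, fell in every treatment. Its levels were 4744, 4957 and 4934 TPM in the triple combination, 5215, 5163 and 5177 TPM with IL-33 and IL-13, 5118, 5003 and 4702 TPM with IL-33 and IL-17A, 6019.9, 6162 and 6029.7 TPM with IL-33, and 7091, 7174 and 6798 TPM in untreated cultures. All treated libraries lay below all untreated ones, and IL-33 alone stood between the untreated cultures and the 3 combinations. Its fall with IL-33 alone was −0.21 ± 0.03 against untreated cultures (adjusted p = 0.00084). Each second cytokine lowered it further, with changes of −0.23 ± 0.03 for IL-13 (adjusted p = 0.00039) and −0.30 ± 0.03 for IL-17A (adjusted p = 9.5e-05), both against IL-33. With a term for the mitochondrial share these were −0.16 (adjusted p = 0.022) and −0.25 (adjusted p = 0.00056). Under median-ratio scaling they were −0.13 (adjusted p = 0.029) and −0.23 (adjusted p = 0.0031). The triple combination stood at −0.09 ± 0.03 against IL-33 with IL-13 (adjusted p = 0.13). This was called with the term (−0.13, adjusted p = 0.039) and on estimated reads with voom (−0.10, adjusted p = 0.028). It was not called under median-ratio scaling (−0.11, adjusted p = 0.13). Against IL-33 with IL-17A the triple combination stood at −0.02 ± 0.03 (adjusted p = 0.79).

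The ratio of Thbs1 to Thbs2, per gene span, was 22.45 to 24.78 in the triple combination, 28.69 to 30.33 with IL-33 and IL-13, 10.09 to 11.05 with IL-33 and IL-17A, 12.14 to 12.96 with IL-33, and 13.57 to 15.26 in untreated cultures. It was higher in all 6 libraries with IL-13 than in any of the other 9. Without IL-13 the groups did not overlap either, and the untreated cultures had the highest ratio of those 3 groups.

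Tnc (ENSMUSG00000028364, chromosome 4, 63959785 to 64047015, minus strand) was the member that rose in every treatment. Its levels were 507, 498 and 505 TPM in the triple combination, 481, 496 and 482 TPM with IL-33 and IL-13, 461, 454 and 432 TPM with IL-33 and IL-17A, 366, 376 and 388 TPM with IL-33, and 274, 269 and 279 TPM in untreated cultures. The 5 groups did not overlap, with the triple combination only just above IL-33 with IL-13. IL-33 alone raised Tnc 1.37 times over untreated cultures (0.46 ± 0.03, adjusted p = 6.6e-07) and the triple combination 1.83 times (0.87 ± 0.03, adjusted p = 2.9e-10).

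Either second cytokine took Tnc above IL-33 alone, by 0.37 ± 0.03 for IL-13 (adjusted p = 5.9e-06) and 0.25 ± 0.03 for IL-17A (adjusted p = 0.00026). With a term for the mitochondrial share these were 0.39 (adjusted p = 0.00021) and 0.27 (adjusted p = 0.001). The triple combination against IL-33 with IL-13 gave 0.05 ± 0.03 (adjusted p = 0.37), and against IL-33 with IL-17A it gave 0.16 ± 0.03 (adjusted p = 0.0037). With the term the second was 0.16 (adjusted p = 0.0058), and within the libraries of higher and lower share, with a single library in 1 arm, it stood at 0.12 and 0.20.

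Fn1 (ENSMUSG00000026193, chromosome 1, 71585520 to 71653200, minus strand) fell in every treatment. Its levels were 1307, 1286 and 1333 TPM in the triple combination, 1401, 1449.7 and 1426 TPM with IL-33 and IL-13, 1303, 1229.7 and 1126 TPM with IL-33 and IL-17A, 1469.7, 1548 and 1526 TPM with IL-33, and 1802, 1791 and 1739 TPM in untreated cultures. Every treated library lay below every untreated one, and the triple combination overlapped IL-33 with IL-17A. Against untreated cultures Fn1 fell by 0.44 ± 0.04 in the triple combination (adjusted p = 5.1e-06) and by 0.23 ± 0.04 with IL-33 (adjusted p = 0.0034), on the log2 scale. IL-17A added to IL-33 lowered it (−0.31 ± 0.04, adjusted p = 0.00061), which was −0.26 (adjusted p = 0.0068) with a term for the mitochondrial share. The single library of IL-33 with IL-17A in the higher share stood at −0.22. IL-13 added to IL-33 gave −0.09 ± 0.04 (adjusted p = 0.15), which came to 0.01 under median-ratio scaling. The triple combination stood at −0.12 ± 0.04 against IL-33 with IL-13 (adjusted p = 0.12). Against IL-33 with IL-17A it stood at 0.10 ± 0.04 (adjusted p = 0.15). Both were called with voom on estimated reads, chosen after seeing the data (−0.13, adjusted p = 0.012, and 0.12, adjusted p = 0.011). Neither was called with a term for the mitochondrial share (−0.17, adjusted p = 0.081, and 0.08, adjusted p = 0.24).

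The ratio of Tnc to Fn1, per gene span, thus parted the treated cultures from the untreated ones. It was 0.3784 to 0.3881 in the triple combination, 0.3384 to 0.3430 with IL-33 and IL-13, 0.3540 to 0.3832 with IL-33 and IL-17A, 0.2431 to 0.2542 with IL-33, and 0.1504 to 0.1603 in untreated cultures. Every library with a second cytokine had a higher ratio than every library with IL-33 alone.

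Sparc (ENSMUSG00000018593, chromosome 11, 55394500 to 55423183, minus strand) fell stepwise. Its levels were 938, 929.6 and 952 TPM in the triple combination, 1027, 1012 and 983 TPM with IL-33 and IL-13, 1139, 1143 and 1082 TPM with IL-33 and IL-17A, 1227, 1225 and 1256 TPM with IL-33, and 1387, 1411 and 1419.7 TPM in untreated cultures. No groups overlapped. Sparc fell to 0.669 times the untreated level in the triple combination (log2 change −0.58 ± 0.03, adjusted p = 4.6e-09) and to 0.879 times with IL-33 alone (−0.19 ± 0.03, adjusted p = 0.00057). IL-13 lowered it when added to IL-33 (−0.30 ± 0.03, adjusted p = 1.3e-05) and when added to IL-33 and IL-17A (−0.25 ± 0.03, adjusted p = 6.3e-05). With a term for the mitochondrial share these were −0.28 (adjusted p = 0.00084) and −0.26 (adjusted p = 7.2e-05), and within the libraries of higher and lower share, with a single library in 1 arm, the second stood at −0.28 and −0.25. IL-17A lowered it against IL-33 (−0.14 ± 0.03, adjusted p = 0.0067), with −0.13 (adjusted p = 0.038) once the term was added, and −0.12 for the single library of IL-33 with IL-17A in the higher share. In the presence of IL-13 the change was −0.10 ± 0.03 (adjusted p = 0.051), which was called on estimated reads with voom (−0.11, adjusted p = 0.014). With the term it was not called (−0.11, adjusted p = 0.085).

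Spp1 (ENSMUSG00000029304, chromosome 5, 104435118 to 104441050, plus strand) was the most abundant of the 7 and varied least. Its levels were 6814, 7116 and 7145 TPM in the triple combination, 6804, 6329.8 and 6832 TPM with IL-33 and IL-13, 7522, 7254 and 6915 TPM with IL-33 and IL-17A, 7917, 7609 and 8066 TPM with IL-33, and 8773, 8715 and 8681 TPM in untreated cultures. Treated libraries all lay below untreated ones, and the 3 combinations overlapped in their order. Against untreated cultures Spp1 fell to 0.763 times with IL-33 and IL-13 (−0.39 ± 0.04, adjusted p = 5.7e-06) and to 0.805 times in the triple combination (−0.31 ± 0.04, adjusted p = 3.2e-05). The fall with IL-33 alone, −0.15 ± 0.04 (adjusted p = 0.02), was lost in 5 of 6 fits without 1 library and under median-ratio scaling (−0.09, adjusted p = 0.15). IL-13 added to IL-33 lowered Spp1 (−0.24 ± 0.04, adjusted p = 0.00074), and IL-17A gave −0.12 ± 0.04 (adjusted p = 0.071). With a term for the mitochondrial share these were −0.17 (adjusted p = 0.046) and −0.07 (adjusted p = 0.44). Under median-ratio scaling they were −0.15 (adjusted p = 0.012) and −0.06 (adjusted p = 0.37).

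Macrophages also express Spp1, Fn1 and Thbs1, so macrophage markers were set beside these genes. The summed level of the 18 markers was 19435 to 20220 TPM in the triple combination, 20056 to 20226 TPM with IL-33 and IL-13, 20713 to 21846 TPM with IL-33 and IL-17A, 20863 to 20976 TPM with IL-33, and 21519 to 21995 TPM in untreated cultures. Lyz2, at an average of 9363 TPM, was the largest single part of this sum. With IL-13 added to IL-33, 3 of the 18 rose, led by the mannose receptor Mrc1 (0.84 ± 0.06), and 10 fell, led by Aif1 (−1.09 ± 0.15), Fcgr1 and Ptprc. In that comparison 10% of all tested genes rose and 22.4% fell. Under median-ratio scaling 5 of the 18 markers rose and 5 fell. With IL-17A added to IL-33, Cd14 (0.27 ± 0.05) and Itgam (0.16 ± 0.03) rose and the other 16 did not pass the test. There 3.54% of all tested genes rose and 6.22% fell. Of 8 genes that go with Spp1 in lung macrophages, 2 rose with IL-13 (Lgals3 and Fabp5) and 5 fell, among them Gpnmb (−0.48 ± 0.03) and Lpl (−0.43 ± 0.12). Summed fibroblast markers stood at 8459 to 8991 TPM in the triple combination and at 12871 to 14274 TPM in untreated cultures. The part of these cells in the falls of Spp1, Fn1, Thbs1 and Sparc was not tested. In bulk RNA, fewer cells of a type and less RNA per cell cannot be told apart.

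With IL-13 added to IL-33, 6 of the 7 genes were called, 2 risen (Postn and Tnc) and 4 fallen (Thbs2, Sparc, Spp1 and Thbs1), where 32.4% of all genes were called, 10% risen and 22.4% fallen. With IL-13 added to IL-33 and IL-17A, 4 were called, with Postn and Tnc risen and Thbs2 and Sparc fallen, where 15.8% of all genes were called, 6.7% risen and 9.14% fallen. With IL-17A added to IL-33, 5 were called, with Tnc risen and Postn, Fn1, Thbs1 and Sparc fallen, where 9.76% of all genes were called, 3.54% risen and 6.22% fallen. With IL-17A added to IL-33 and IL-13, 2 were called, with Thbs2 risen and Postn fallen, where 7.45% of all genes were called, 3.4% risen and 4.05% fallen. Among all called genes, the share of higher ones moved under median-ratio scaling to 53% for IL-13 on IL-33, where the deposited scale gave 31%, and to 53.3% for IL-17A on IL-33, where it gave 36.2%.

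**Figure D5:**
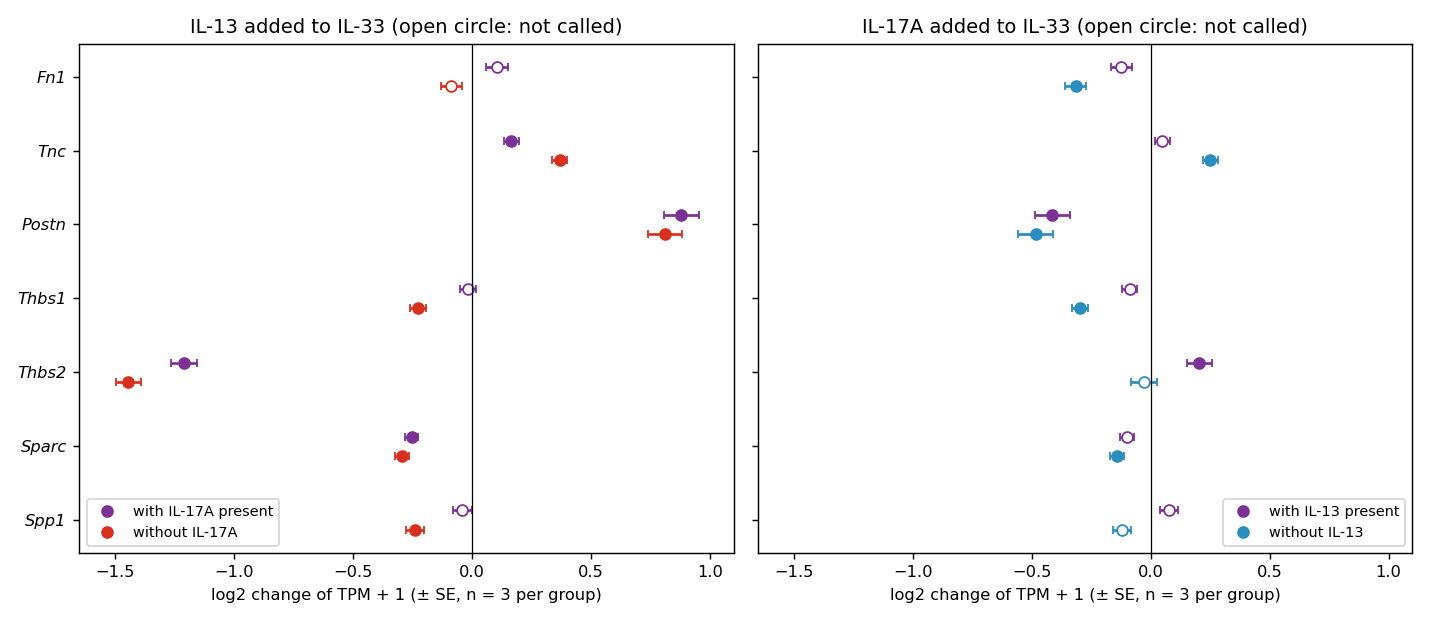
Log2 change of TPM + 1 on adding IL-13 (left) or IL-17A (right), with SE (n = 3 libraries per group), in the presence and absence of the other cytokine. Filled circles passed an adjusted p of 0.05. Thbs2 and Postn stand out on the left, and on the right Postn lies below 0 in both settings.

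Whether the effect of one cytokine depended on the other was tested as an interaction, the triple combination minus IL-33 with IL-13 minus IL-33 with IL-17A plus IL-33. None of the 7 genes passed in limma, where 0.338% of all genes (47) did, 0.158% above and 0.18% below 0, and 5 of the 7 had an unadjusted p under 0.05, as did 27% of all genes. The values were −0.20 ± 0.04 for Tnc (adjusted p = 0.065), 0.21 ± 0.05 for Thbs1 (adjusted p = 0.067), 0.20 ± 0.05 for Spp1 (adjusted p = 0.085), 0.23 ± 0.08 for Thbs2 (adjusted p = 0.1) and 0.19 ± 0.06 for Fn1 (adjusted p = 0.1). Postn stood at 0.07 ± 0.10 (adjusted p = 0.69) and Sparc at 0.04 ± 0.04 (adjusted p = 0.52). On estimated reads with voom 3 of the 7 were called, where 9.97% of all genes were. Without replicate 1 of IL-33 with IL-17A 5 were called, where 21.9% of all genes were (3038). Without replicate 1 of the triple combination 4 were, where 16.5% of all genes were (2284). Each of these libraries differs from the rest of its group in its set by mitochondrial share. Without it the interaction follows the split between the sets more closely. With a term for the set none of the 7 were called, where 0.0144% of all genes (2) were. The other 10 fits without 1 library called none of the 7. The median interaction of all genes was 0.065, and −0.0078 under median-ratio scaling. Under that scaling Tnc was called (−0.28, adjusted p = 0.026). Thbs1 (0.13), Spp1 (0.12), Thbs2 (0.15) and Fn1 (0.11) came closer to 0 and were not called. The values of the full fit therefore do not show that the cytokines act independently on the members. Nor do the calls in some alternatives show that they interact.

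The genes whose levels ran closest to each member over the 15 libraries were taken as a description. For Thbs2 they were Lpcat2 (r = 0.989), Tgfbi (0.985), which encodes a relative of periostin, and the secreted ligand Wnt5a (0.983). For Tnc they were Rgs16 (r = 0.996), the chemokine gene Cxcl3 (0.992) and Glrx (0.991). For Sparc they were the collagen gene Col6a3 (r = 0.993), Mical2 (0.988) and Lrrc15 (0.988), and for Thbs1 they were Lpp (0.989), the integrin gene Itgb1 (0.988) and the fibrillin gene Fbn1 (0.987). Fn1 ran closest to Frmd4a (r = 0.975), Fhl1 (0.969) and Msn (0.968), Spp1 to Grn (0.976), Serinc3 (0.976) and the syndecan gene Sdc2 (0.973), and Postn to Mcm3 (0.956), Sft2d2 (0.953) and Pa2g4 (0.948). Among the members themselves, Fn1 and Thbs1 ran together (r = 0.944), and Tnc ran against Thbs1 (−0.947). These points share groups of 3 libraries, so they hold few independent steps.

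Other matricellular and adhesive proteins fell more often than they rose. The shares of all genes called, given above for each comparison, are the background for this list and for those below. Of 28 tested, 2 rose and 21 fell in the triple combination against untreated cultures, with a median of −0.53 where all genes had −0.10. The largest falls were in the CCN family, with Ccn5 at −3.09 ± 0.05 (adjusted p = 2.6e-13) and Ccn3 at −2.02 ± 0.15, followed by the elastic fibre gene Fbln5 at −1.52 ± 0.06. The nephronectin gene Npnt (0.57 ± 0.08) and the galectin gene Lgals3 (0.33 ± 0.05) rose. With IL-33 alone, 2 rose and 12 fell, among them Ccn3 (−1.23 ± 0.15).

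Of these 28, IL-13 added to IL-33 raised 4 and lowered 16, with a median of −0.26. Those that fell most were Ccn5 (−1.74 ± 0.05, adjusted p = 9.9e-10), Ccn4 (−1.31 ± 0.08) and Smoc2, a relative of Sparc (−0.73 ± 0.09). Npnt (0.72 ± 0.08), Lgals1 (0.38 ± 0.11) and Sparcl1, another relative of Sparc (0.36 ± 0.06), rose. IL-17A added to IL-33 raised 1, Tnxb, a relative of Tnc, by 0.36 ± 0.09, and lowered 9, led by Ccn3 (−0.65 ± 0.15), Ccn2 (−0.63 ± 0.05) and the spondin gene Spon2 (−0.62 ± 0.06). Under median-ratio scaling the counts were 5 risen and 13 fallen for IL-13, and 2 risen and 8 fallen for IL-17A. With a term for the mitochondrial share they were 4 risen and 12 fallen for IL-13, and 0 risen and 7 fallen for IL-17A.

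The receptors of the members moved in both directions. In the triple combination against untreated cultures, 8 of 18 rose and 7 fell, with a median of 0.08. The integrin gene Itgb3, whose product with the alpha-v chain binds osteopontin and periostin, rose by 1.30 ± 0.05 (adjusted p = 8.6e-10), Cd47 by 0.91 ± 0.07 and Cd36 by 0.58 ± 0.08. Those that fell most were Itga8 (−1.97 ± 0.09), Itga5, the alpha chain of the fibronectin receptor (−1.06 ± 0.03, adjusted p = 3.8e-11), and Sdc2 (−0.95 ± 0.08). With IL-33 alone 5 rose, led by Sdc1 (0.50 ± 0.06), and 6 fell, led by Itga8 (−1.22 ± 0.09).

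The addition of IL-13 to IL-33 raised 5 receptors and lowered 6, with Cd36 at 0.82 ± 0.08 and Itgb3 at 0.73 ± 0.05 on one side and Itga5 at −0.74 ± 0.03 and Itga4 at −0.71 ± 0.12 on the other. IL-17A added to IL-33 raised Itgb3 (0.50 ± 0.05) and the hyaluronan and osteopontin receptor Cd44 (0.14 ± 0.03) and lowered 5, led by Itga5 (−0.53 ± 0.03). Under median-ratio scaling IL-13 raised 8 and lowered 6, and with a term for the mitochondrial share it raised 5 and lowered 5.

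TGF-beta is a known inducer of Fn1, Postn, Tnc and Thbs1 in fibroblasts, but its part in their changes here was not tested. Of its 3 ligand genes, 2 fell and Tgfb1 rose. In the triple combination against untreated cultures 2 of 12 genes rose and 8 fell, with Tgfb3 at −2.32 ± 0.04 (adjusted p = 3.2e-13), Tgfb2 at −2.05 ± 0.09 and the target gene Ccn2 at −1.38 ± 0.05. Tgfb1 rose by 0.34 ± 0.05 and the coreceptor gene Tgfbr3 by 0.38 ± 0.09. Against IL-33, IL-13 lowered 10 of the 12 and IL-17A lowered 6, and the others did not pass the test. Under median-ratio scaling IL-13 again lowered 10, and IL-17A raised 1 and lowered 5. With a term for the mitochondrial share IL-13 lowered only 6 and IL-17A lowered 5.

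Of 11 proteases that cleave these proteins, 6 rose and 3 fell with IL-33 alone against untreated cultures. Mmp9 rose by 3.73 ± 0.05 (adjusted p = 9e-14), and the stromelysin genes Mmp10 and Mmp3 rose by 3.14 ± 0.09 and 3.11 ± 0.07. IL-17A added to IL-33 raised 5, with Mmp9 at a further 1.25 ± 0.05, and lowered the plasminogen activator gene Plat (−0.33 ± 0.07) and Mmp14 (−0.32 ± 0.04). On top of IL-33, IL-13 raised 5, led by Mmp13 (1.06 ± 0.08), and lowered 5, led by the cathepsin gene Ctsk (−0.41 ± 0.07). Under median-ratio scaling IL-13 raised 6 and lowered 1, and with a term for the mitochondrial share it raised 5 and lowered 2.

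Genes known to respond to IL-13 were measured beside the members. All 9 tested rose when IL-13 was added to IL-33, led by the eotaxin gene Ccl11 (4.09 ± 0.13), Cish (2.81 ± 0.10) and the decoy receptor gene Il13ra2 (2.58 ± 0.09), and 5 rose when IL-17A was added. With a term for the mitochondrial share 8 of the 9 rose with IL-13 and 5 with IL-17A. Of the smooth muscle and pericyte markers, among them contractile genes that myofibroblasts also use, all 8 tested fell with IL-33 alone against untreated cultures, 7 fell with IL-13 added to IL-33 and 8 with IL-17A added. Their summed level was 1527 to 1667 TPM in the triple combination and 5226 to 5311 TPM in untreated cultures.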

How the data were processed

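Per the labels' protocols, total RNA was purified on RNeasy columns and read on a NovaSeq sequencer. HISAT2, without a version, and the build mm10 are named in the submitters' processing notes, and Ensembl and Havana gene models per the file headers. The tool that made the TPM values the authors deposited, its strand setting and how it treated reads matching several genes are not stated in the sources used here. The 18078 values of each library sum to the same total. TPM multiplied by gene span gave whole reads (within 0.03 of a whole number, up to 20 reads) for 89.4% to 90.8% of 4747 to 4992 low values per library. With exonic length this held for 4.76% to 7.96% of values of genes with several exons and 1 transcript, against 84.4% to 87.4% with the span. Levels between genes were recomputed with exonic lengths of GENCODE vM21.

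limma 3.58.1 (R 4.3.3, trend and robust options) was fitted to log2(TPM + 1) of all 15 libraries with a mean per group, restricted to genes that reached 1 TPM in 3 or more libraries. This kept 13887 genes and left out 4191, and all 7 members passed. The two-sided p-values of each of the 9 comparisons were corrected across all genes in the fit (Benjamini-Hochberg), with 0.05 as the limit for a call. Errors are SE of the fit unless named SD. Fold changes are on the log2(TPM + 1) scale. TPM has a fixed total, so it does not measure RNA per cell. Every member was named in all comparisons, and of each other list at most the 3 called genes with the largest change per comparison and direction. The members, lists and tests were chosen with earlier results of these data known. Alternatives were other pseudocounts (0.1 and 5), no filter on low values, median-ratio scaling, plain eBayes, the compared groups only, a term for libraries with a mitochondrial share under 4.5%, each such set alone, leaving out each library, and, chosen after seeing the data, voom on the estimated reads. The fit was tested on simulated data for IL-33 against untreated, with 100 genes changed by 0.5 log2 and 100 by 1 log2. It called 57% of the first and 87% of the second. There were 6 false calls, and 5 changed genes had the wrong sign. The changed genes were drawn from tested genes of all levels and were far fewer than the 1972 genes called for this comparison in the data. These shares are therefore not those of the members. A change that did not pass may still be real. Files were read with Python 3.11.15 and pandas 2.3.3.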

Additional observations from a re-analysis of the deposited data

Results flagged for a closer look

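None of the 7 members had a called interaction of IL-13 and IL-17A under IL-33, but 5 genes of the related lists did. On the log2 scale the interaction was 0.26 for the fibronectin receptor gene Itga5 (adjusted p = 0.03), 0.72 for Tgfb3 (adjusted p = 0.00027) and 0.89 for Tgfb2 (adjusted p = 0.011). It was −0.46 for Arg1 (adjusted p = 0.015) and −1.07 for Cish (adjusted p = 0.0071). In this fit the effect of IL-13 on each thus differed between cultures with and without IL-17A. Under median-ratio scaling no receptor gene passed, so the call of Itga5 was lost. For Itga5, Tgfb2 and Tgfb3, which fell with either cytokine added to IL-33, the combined fall was smaller than the sum of the 2 falls, and for Arg1 and Cish, which rose, the combined rise was smaller than the sum. With a term for the mitochondrial share of the libraries, Tgfb3 kept the call at 0.66 (adjusted p = 0.03), and the others did not, with adjusted p from 0.47 for Cish to 0.59 for Itga5.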

How the results depend on the processing

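Of the 42 called changes of the members, 35 kept their call and all 42 their direction in every alternative run. The 7 that lost it at least once were those of Fn1, Postn and Sparc for IL-17A added to IL-33, Sparc and Tnc for IL-13 added to IL-33 and IL-17A, Spp1 for IL-33 against untreated, and Thbs2 for IL-17A added to IL-33 and IL-13. The losses of Fn1 and Postn were only within the higher mitochondrial share, and all sets by that share have a single library in 1 arm of these comparisons, assumed to vary like the others, so their lost calls say little. The cause of the lost calls was not tested. IL-33 with IL-13 could not be compared with IL-33 or with untreated cultures within a set, so its calls there could not be lost in that way. No paired analysis was possible because the labels carry no replicate numbers, and the numbers used here follow the order of deposit.

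With the term for mitochondrial share, the number of all genes called was 1420 for IL-13 added to IL-33 (4506 without it), 3549 for IL-33 with IL-13 against untreated (6887), 566 for the triple combination against IL-33 with IL-13 (1034), 835 for IL-17A added to IL-33 (1355), 3452 for IL-33 with IL-17A against untreated (5229) and 2 for the interaction (47). With the compared groups only, 590 genes were called for the triple combination against IL-33 with IL-13, 803 for it against IL-33 with IL-17A (2199 in the full fit) and 550 for IL-17A added to IL-33. Within the higher mitochondrial share these counts were 824 for the triple combination against IL-33 with IL-17A, 316 for IL-17A added to IL-33 and 2152 for IL-33 with IL-17A against untreated, and within the lower share 210 and 644 for the triple combination against IL-33 with IL-13 and with IL-17A. The voom fit called 1647 for the triple combination against IL-33 with IL-13 and 1385 for the interaction, which came to 72 with a pseudocount of 5 and 96 with median-ratio scaling. Leaving out a library gave 493 to 1961 for the triple combination against IL-33 with IL-13, 1451 to 2542 for it against IL-33 with IL-17A, 810 to 3057 for IL-17A added to IL-33 and 21 to 3038 for the interaction. The highest counts were without replicate 1 of the triple combination for the first of these (1961), and without replicate 1 of IL-33 with IL-17A for the last 2, and without replicate 1 of the triple combination the interaction had 2284.

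Of the members, IL-17A added to IL-33 and IL-13 called 1 with plain eBayes, the compared groups only or the lower share, 5 with voom, and 1 to 2 without a library (2 in the full fit). IL-13 added to IL-33 and IL-17A called 2 within the lower share (4), and IL-17A added to IL-33 called 2 within the higher share (5). The interaction called 1 with median-ratio scaling, 3 with voom and 0 to 5 without a library (0), with 5 lacking replicate 1 of IL-33 with IL-17A and 4 lacking replicate 1 of the triple combination.

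All changes of sign were of uncalled values. With median-ratio scaling these were Fn1 for IL-13 added to IL-33 (0.0065), Thbs2 for IL-17A added to IL-33 (0.036) and for IL-33 with IL-17A against untreated (0.094), and the interactions of Postn (−0.013) and Sparc (−0.041). With the mitochondrial term they were the interaction of Postn (−0.23) and Thbs2 for IL-17A added to IL-33 (0.062) and for IL-33 with IL-17A against untreated (0.063), which came to 0.060 and 0.061 within the higher share. With voom they were Sparc in the interaction (−0.024), Thbs1 for the triple combination against IL-33 with IL-17A (0.0025), and Thbs2 for IL-17A added to IL-33 (0.028) and for IL-33 with IL-17A against untreated (0.080). Without a library, Thbs1 for the triple combination against IL-33 with IL-17A ran from −0.053 to 0.0081, Thbs2 for IL-33 against untreated from −0.019 to 0.027, for IL-17A added to IL-33 from −0.072 to 0.0042 and for IL-33 with IL-17A against untreated from −0.072 to 0.0048.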
